A study of Mus musculus with 16 samples.

Results

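Spliced snoRNA host noncoding RNAs are long noncoding RNAs whose introns carry the genes of small nucleolar RNAs (snoRNAs). In these data they are the 8 genes Gas5, Snhg1, Snhg3, Snhg5, Snhg6, Snhg8, Snhg12 and Snhg15, which were taken by symbol from the 53379 genes of the count table. They were examined in RNA recovered with the transcription factor Sox2 by immunoprecipitation (IP) from male mouse embryonic stem cells (mESC) and in the matching input RNA. All 16 libraries came from such cells, which carry no allele named in the labels and were kept undifferentiated with leukemia inhibitory factor (LIF) at 1000 U/mL, the MEK inhibitor PD0325901 at 1 uM and the GSK3 inhibitor CHIR99021 at 3 uM. Cells were crosslinked with formaldehyde (fRIP), which joins proteins to RNA both directly and through other proteins, or with UV light (UV-RIP), which joins proteins to RNA in direct contact. Each crosslinker had 4 IP libraries and 4 input libraries, numbered 3 to 6, and the IP and input of a number were taken from the same lysate. No IP with a control antibody was analysed here, so the input is the only reference. The comparison of IP with input asks which RNAs were recovered with Sox2 more or less than their share of the lysate.

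A snoRNA host gene is transcribed by RNA polymerase II and spliced. The excised introns are trimmed to snoRNAs, which guide the chemical modification of ribosomal and other RNAs: box C/D snoRNAs guide the methylation of the ribose and box H/ACA snoRNAs guide the conversion of uridine to pseudouridine. Many hosts begin with the pyrimidine-rich start shared with ribosomal protein mRNAs, and several of the noncoding ones, Gas5 among them, are translated to no lasting product and are kept low by nonsense-mediated decay in the cytoplasm.

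The hosts are short genes. Gas5 lies on the plus strand of chromosome 1 of GRCm38 from 161034422 to 161038539 and Snhg1 on the plus strand of chromosome 19 from 8723475 to 8726443. Snhg3 lies on the minus strand of chromosome 4 from 132348014 to 132353686, and Snhg12 on its plus strand from 132308623 to 132311024. Snhg5 lies on the minus strand of chromosome 9 from 88521050 to 88522929 and Snhg6 on the minus strand of chromosome 1 from 9941959 to 9944118. Snhg8 lies on the minus strand of chromosome 3 from 123507552 to 123508404 and Snhg15 on the minus strand of chromosome 11 from 6525591 to 6528760. The counts were made on GENCODE vM16 and these positions are those of GENCODE vM21, where the identifiers and versions of all but Snhg12 matched. The body of Snhg12 was 2347 bases in the count table and 2402 bases in vM21. Within the 8 hosts vM21 placed 30 snoRNA entries on the same strand, at 28 separate loci. Gas5 held 10 entries, Snhg1 held 8, Snhg12 held 5, Snhg3 and Snhg5 held 2 each, and Snhg6, Snhg8 and Snhg15 held 1 each.

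**Figure D1:**
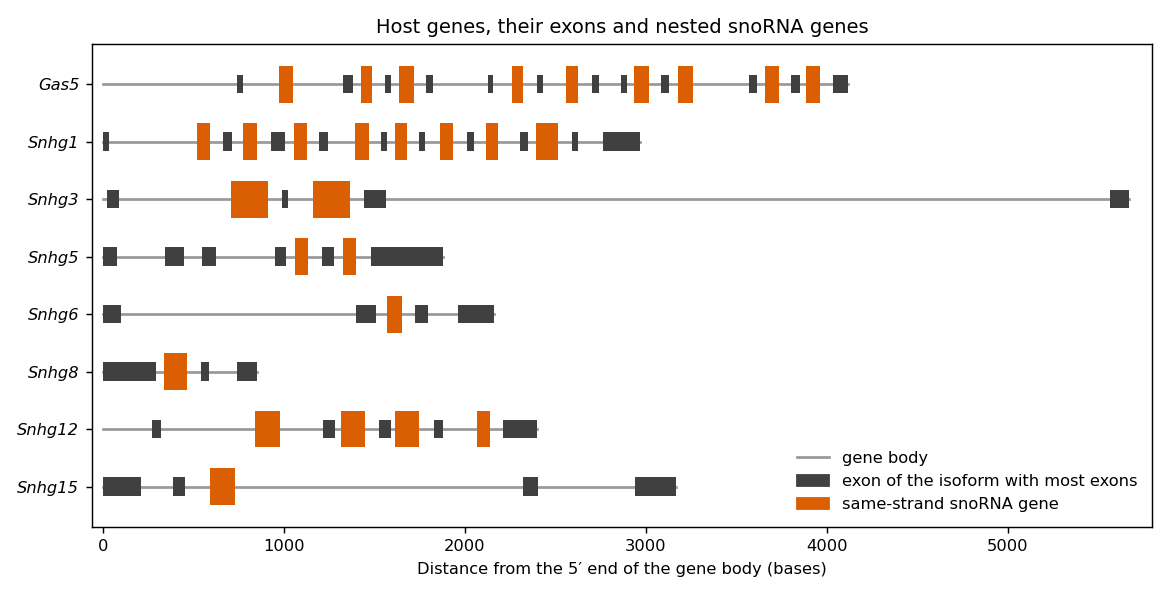
Map of the 8 host genes to 1 scale. The horizontal axis is the distance in bases from the 5′ end of the gene body, dark boxes are the exons of the annotated isoform with the most exons, grey lines are the rest of the gene body and orange boxes are the 30 same-strand snoRNA entries. No snoRNA touches an exon of these isoforms, and Gas5 and Snhg1 show alternating exons and snoRNAs along the gene.

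None of the 30 nested snoRNA entries touched an exon of the isoform with the most exons, which had 12 exons in Gas5 and 10 in Snhg1. Other annotated isoforms of the hosts keep these introns, and 2327 of the 2665 bases in nested snoRNAs lay in an exon of at least 1 of them. Sequences of 9 of them from the GENCODE vM21 transcripts on GRCm38 follow, at least 1 from each host, because they are the nested genes that returned no UMI. A UMI (unique molecular identifier) is a random tag that lets copies of 1 RNA fragment be counted as 1. In box C/D snoRNAs the capitals mark box C, found here as ATGATGA or GTGATGA in the first 20 bases, and box D, found as CTGA in the last 15 bases. In the others they mark ACA placed 3 bases before the 3′ end. Only the strand of the snoRNA was searched, and the motifs do not overlap one another in these sequences.
Snord47 (inside Gas5, plus strand of chromosome 1 from 161038082 to 161038158): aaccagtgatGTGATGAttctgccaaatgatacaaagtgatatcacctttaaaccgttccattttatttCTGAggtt
Gm22744 (inside Snhg1, plus strand of chromosome 19 from 8725092 to 8725156): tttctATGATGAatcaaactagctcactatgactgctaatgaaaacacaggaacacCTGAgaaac
Snord50a (inside Snhg5, minus strand of chromosome 9 from 88521529 to 88521600): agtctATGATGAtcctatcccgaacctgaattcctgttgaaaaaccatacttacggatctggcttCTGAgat
Snord50b (inside Snhg5, minus strand of chromosome 9 from 88521797 to 88521868): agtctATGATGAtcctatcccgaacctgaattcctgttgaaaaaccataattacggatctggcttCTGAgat
Snord87 (inside Snhg6, minus strand of chromosome 1 from 9942463 to 9942549): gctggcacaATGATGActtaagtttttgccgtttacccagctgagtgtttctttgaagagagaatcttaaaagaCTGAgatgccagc
Snord99 (inside Snhg12, plus strand of chromosome 4 from 132310691 to 132310764): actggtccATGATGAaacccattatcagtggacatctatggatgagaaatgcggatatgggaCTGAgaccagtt
Snora24 (inside Snhg8, minus strand of chromosome 3 from 123507937 to 123508066): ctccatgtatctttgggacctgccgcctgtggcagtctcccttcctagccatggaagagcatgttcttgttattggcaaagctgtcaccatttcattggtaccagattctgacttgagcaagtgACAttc
Snora9 (inside Snhg15, minus strand of chromosome 11 from 6528033 to 6528165): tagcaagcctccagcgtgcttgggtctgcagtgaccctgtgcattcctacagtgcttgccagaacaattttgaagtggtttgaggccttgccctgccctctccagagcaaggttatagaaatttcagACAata
Snora73a (inside Snhg3, minus strand of chromosome 4 from 132352775 to 132352979): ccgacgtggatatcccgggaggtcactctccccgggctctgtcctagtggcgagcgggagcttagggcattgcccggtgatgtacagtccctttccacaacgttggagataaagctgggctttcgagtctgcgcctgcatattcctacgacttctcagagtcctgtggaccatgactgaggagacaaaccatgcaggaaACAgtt

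Of the 30 nested entries, 16 (53.3%) held both box C and box D and 7 (23.3%) held the ACA, against 19.8% and 18% of all 1507 annotated snoRNA genes. The remaining 7 held neither in these letters. Snord50a and Snord50b in Snhg5 were 98.6% identical and differed only by C50A, counted from 1 at the 5′ end with the base of Snord50a first. They shared a run of 49 identical bases. Snora73a and Snora73b in Snhg3 were 96.6% identical over 205 bases and shared a run of 56. Reads that did not map uniquely were discarded when the counts were made.

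None of the 30 nested snoRNA entries had a single UMI in any of the 16 libraries. The same held over the table: of 5830 genes that lie inside another gene on the same strand 0 had a UMI, including 0 of 630 snoRNA genes, whereas 3372 of 5459 genes (61.77%) that lie inside a gene on the opposite strand only had at least 1. UMIs in a stretch shared by 2 genes on the same strand were thus not counted for the inner gene. That they were not counted for the outer gene either is the default of featureCounts, the counting tool, and was not seen directly. The stretches covered by snoRNAs made up 20.9% of the body of Snhg1, 19.6% of Snhg12, 16.2% of Gas5, 15.2% of Snhg8, 7.7% of Snhg5, 4.2% of Snhg15 and 4.0% of Snhg6. The counts give the host gene body, spliced or not, and no separate measure of the snoRNAs, and whether host counts hold UMIs of the snoRNA stretches was not tested.

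Snhg3 could hardly be measured. The gene of the nucleotide exchange factor Rcc1 covers 5592 bases of Snhg3 on the same strand (98.6%), which leaves 81 bases. Snhg3 had between 0 and 2 UMIs in each library, and 2 in all in the fRIP inputs, 2 in the fRIP IPs, 5 in the UV-RIP inputs and 2 in the UV-RIP IPs. It was the only member under the minimum of 3 UMIs in at least 1 library, so 7 of the 8 members entered the tests.

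The libraries held between 12.46 and 21.21 M UMIs on genes, with medians of 19.32 M in the fRIP IPs, 14.02 in the fRIP inputs, 15.59 in the UV-RIP IPs and 12.85 in the UV-RIP inputs. Apart from Sox2, which lies inside Sox2ot on the same strand and had no UMI, all of the 8 markers of naive mESC were detected. Their summed level was 1870 to 4180 CPM (the UMIs of a gene per 1000000 UMIs on genes in a library), against at most 8.80 CPM for markers of endoderm, 3.30 for fibroblasts, 1.12 for mesoderm and 0.471 for trophoblast. The neural markers summed to at most 3.71 CPM, all from Pax6, since Sox1 and Tubb3 lie inside Sox1ot and Gm20388 on the same strand and had no UMI, as for Sox2. The fRIP input of replicate 4 stood apart from its group, since the annotation class misc_RNA made up 2.81% of its UMIs, and 0.349% to 0.620% of those of the other fRIP inputs. The genes Gm26917 and Gm42418 together made up 20.45% to 24.70% of the UV-RIP IPs and 13.67% to 14.02% of the UV-RIP inputs. In fRIP they made up 14.36% of the IP and 10% of the input of replicate 5, against 6.33% to 7.82% of the other IPs and 6.49% to 7.28% of the other inputs. The fRIP IP of replicate 5 also stood apart from the other IPs, since its counts differed from theirs by 57.84 to 91.92 (chi-square over its degrees of freedom, across genes) and theirs from each other by 7.36 to 8.59. These libraries recur beside the results they touch.

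The 7 measured hosts were well covered, with between 118 UMIs (Snhg8 in a fRIP and a UV-RIP IP) and 3499 UMIs (Gas5 in a fRIP input) in a library. Levels between genes are compared per kb of the gene body that no other gene on the same strand covers. Gas5 was the highest in every group, with 54.3 ± 11.7 CPM per kb in the fRIP inputs and 55.4 ± 2.93 in the UV-RIP inputs (SD, n = 4 each). Snhg1 followed with 51.9 ± 10.6 in the fRIP inputs, where its range overlapped that of Gas5, and 43.2 ± 3.61 in the UV-RIP inputs, where it did not. Snhg5 was the third with 33.1 ± 3.77 and 28.5 ± 1.98 CPM per kb in the fRIP and UV-RIP inputs (SD, n = 4 each). Snhg8, Snhg12, Snhg6 and Snhg15 came next in this order, from 23.5 to 16.3 CPM per kb in the fRIP inputs and from 19.3 to 16.4 in the UV-RIP inputs, and neighbours in that order overlapped in range in both. Without replicate 4 the mean of Snhg8 in the fRIP inputs was 18.4 ± 2.25 CPM per kb (SD, n = 3) in place of 23.5 ± 10.5 (SD, n = 4), that of Gas5 was 48.7 ± 3.58 and that of Snhg1 47 ± 4.53, and Snhg15 (14.6) and Snhg6 (14.5) changed places. Per kb of the whole body, snoRNAs included, Snhg8 was still the highest of these 4 in the fRIP inputs (19.9 CPM per kb) and Snhg12 the lowest (14 CPM per kb).
In the IPs the first 3 hosts were the same, although per kb of the whole body Snhg5 (28.5) came before Snhg1 (26.6) in the fRIP IPs. Snhg15, among the last of the 7 in both inputs, came next in the fRIP IPs with 21.2 ± 0.982 CPM per kb and overlapped neither Snhg5 above it nor Snhg12 below it. Snhg8, next after Snhg5 in both inputs, was the last in the fRIP IPs with 10.3 ± 1.75 CPM per kb, and overlapped Snhg6 at 11.0 ± 1.35 (SD, n = 4 each).

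Together the 7 measured members summed to 501 ± 106 CPM in the fRIP inputs and 387 ± 39.6 in the fRIP IPs, and to 478 ± 26.5 in the UV-RIP inputs and 297 ± 10.4 in the UV-RIP IPs (SD, n = 4 each). The 4 fRIP IPs lay between 328 and 413 CPM, just under the 4 fRIP inputs at 417 to 654. Without replicate 4 the sums were 449 ± 35.4 CPM in the fRIP inputs and 378 ± 43.6 in the fRIP IPs (SD, n = 3 each). These also include Snhg3, which had at most 0.111 CPM in a fRIP library. The 4 UV-RIP IPs lay between 290 and 313 CPM, well under the UV-RIP inputs at 448 to 503. The hosts as a sum were thus a smaller share of every IP than of every input of the same crosslinker.

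**Figure D2:**
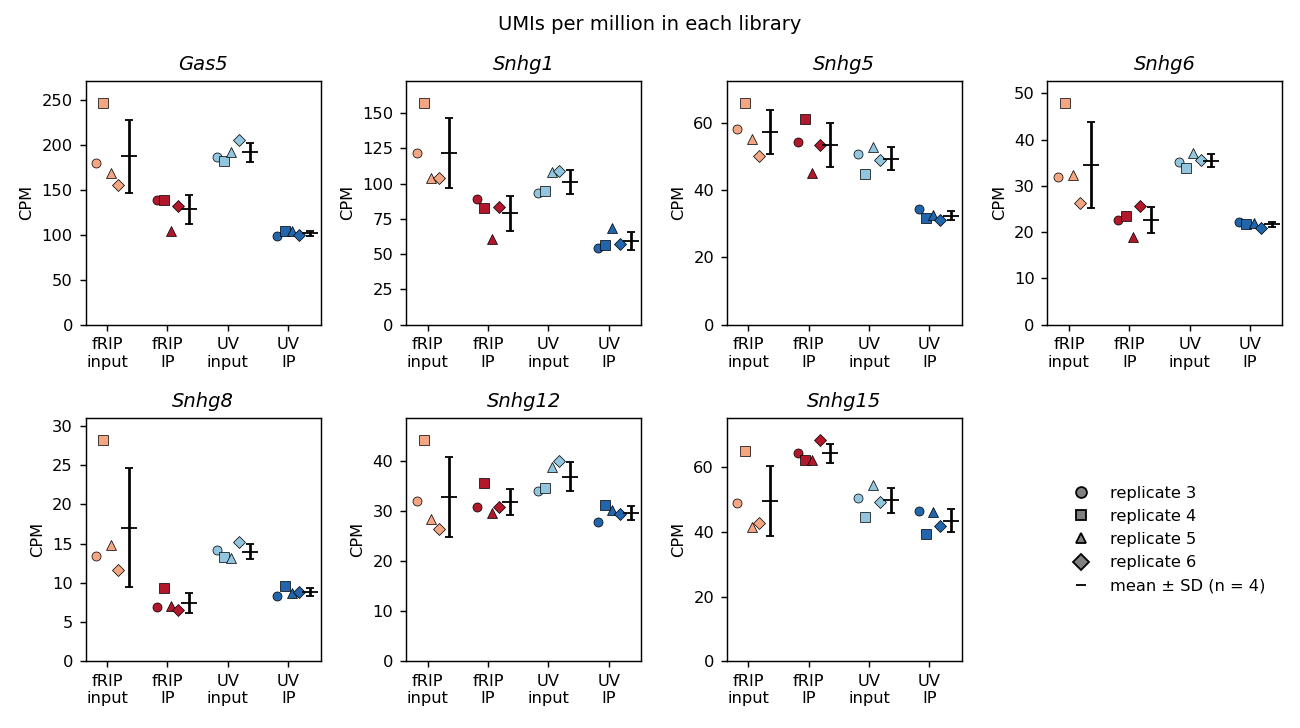
Level of each of the 7 measured hosts in each library. The vertical axis is CPM from 0, the horizontal axis gives the 4 groups, each symbol is a library of the replicate number shown and the black marks are the mean ± SD of 4 libraries. Replicate 4 is the highest fRIP input in all 7 panels, and the UV-RIP IPs lie under the UV-RIP inputs for every host but Snhg15, whose groups overlap.

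In fRIP no member was enriched and 3 of the 7 tested were depleted, Snhg8, Snhg1 and Snhg6. A gene was called enriched or depleted at a fold change beyond 1.5 (0.585 on the log2 scale) with an adjusted p below 0.05. Among all 22936 genes tested 8.80% were enriched and 10.7% depleted. Among the 948 genes with a body under 6 kb and at least 100 UMIs on average, the class to which all 7 hosts belong, 2.11% were enriched and 59.1% depleted, so the 3 of 7 did not exceed the share of short genes. The median log2 fold change of the 7 hosts was -0.54, against -0.03 over all genes tested and -0.69 over the short ones.

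Snhg8, the shortest of the hosts and the carrier of Snora24, had 13.4, 28.2, 14.8 and 11.6 CPM in the fRIP inputs of replicates 3 to 6. In the fRIP IPs it had 6.94, 9.34, 7.07 and 6.53 CPM. Every IP library was below every input library. The log2 fold change was -1.14 (SE 0.12, adjusted p = 4.82e-08), the lowest of the members. Without replicate 4, whose ratio of -1.59 was the lowest of the 4 plates, Snhg8 stayed past the threshold in fRIP.

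Snhg1 had 122, 157, 104 and 104 CPM in the fRIP inputs and 88.9, 83, 60.8 and 83.3 CPM in the fRIP IPs. The groups did not overlap, and the log2 fold change was -0.62 (SE 0.09, adjusted p = 4.92e-06). Snhg6, the carrier of Snord87, had 31.9, 47.9, 32.3 and 26.3 CPM in the fRIP inputs and 22.6, 23.6, 19 and 25.7 CPM in the IPs. Its groups came within 1 CPM of each other without overlap, and its log2 fold change of -0.59 (SE 0.11, adjusted p = 1.74e-04) was just past the threshold. The call of Snhg6 was lost, with little change in the fold, with TMM scaling (-0.54), DESeq2 on total UMIs (-0.58), DESeq2 median-of-ratios size factors (-0.55) and library sizes without Gm26917 and Gm42418 (-0.57), and that of Snhg1 with TMM scaling (-0.57). Gas5 had 180, 246, 168 and 155 CPM in the fRIP inputs and 138, 138, 104 and 132 CPM in the IPs. Here too every IP lay below every input, but the log2 fold change of -0.54 (SE 0.09, adjusted p = 2.22e-05) fell short of 1.5-fold.

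Snhg5, the carrier of Snord50a and Snord50b, had 58.1, 65.9, 55.1 and 50.3 CPM in the fRIP inputs and 54.3, 61.2, 45.0 and 53.4 CPM in the IPs. The groups overlapped, and the log2 fold change was -0.10 (95% interval -0.27 to 0.06, adjusted p = 0.373). Snhg12 had 32, 44.2, 28.5 and 26.4 CPM in the inputs and 30.9, 35.6, 29.7 and 30.8 CPM in the IPs, with a log2 fold change of -0.03 (95% interval -0.21 to 0.16, adjusted p = 0.871). For both hosts a change of 1.5-fold lies outside the interval of this fit. With the length trend removed both turned upward, to 0.46 for Snhg5 (adjusted p = 1.68e-04) and 0.50 for Snhg12 (adjusted p = 1.10e-04), short of 1.5-fold.

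Snhg15, the carrier of Snora9, was the only member with a higher share in the fRIP IPs. It had 48.9, 65.1, 41.6 and 42.8 CPM in the fRIP inputs and 64.5, 62.2, 62.2 and 68.5 CPM in the IPs. The IPs lay above the inputs of replicates 3, 5 and 6, and the input of replicate 4 lay between them. The log2 fold change was 0.39 (SE 0.10, adjusted p = 0.00216), under the fold threshold for enrichment.

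Several of these values moved with replicates 4 and 5. The fRIP input of replicate 4 was the highest of the 4 inputs for all 7 hosts, and its ratio of IP to input was the lowest of the 4 plates for all but Snhg5. Without replicate 4 Snhg1 stood at -0.52, Snhg6 at -0.44 and Snhg15 at 0.55, and the median of the 7 was -0.44. Then 1 of the 7 was depleted, against 9.41% of all genes. Without replicate 5 the count was also 1, against 9.98% of all genes, with Snhg1 at -0.57 and Snhg6 at -0.53. Gas5 passed the threshold without replicate 3 at -0.59 or without replicate 6 at -0.64. With a trend on gene length removed from each library, 0 of the 7 were depleted in fRIP and Snhg15 was enriched at a log2 fold change of 0.87 (adjusted p = 4.35e-06). Over all genes 5.41% were depleted and 8.99% enriched in that fit.

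**Figure D3:**
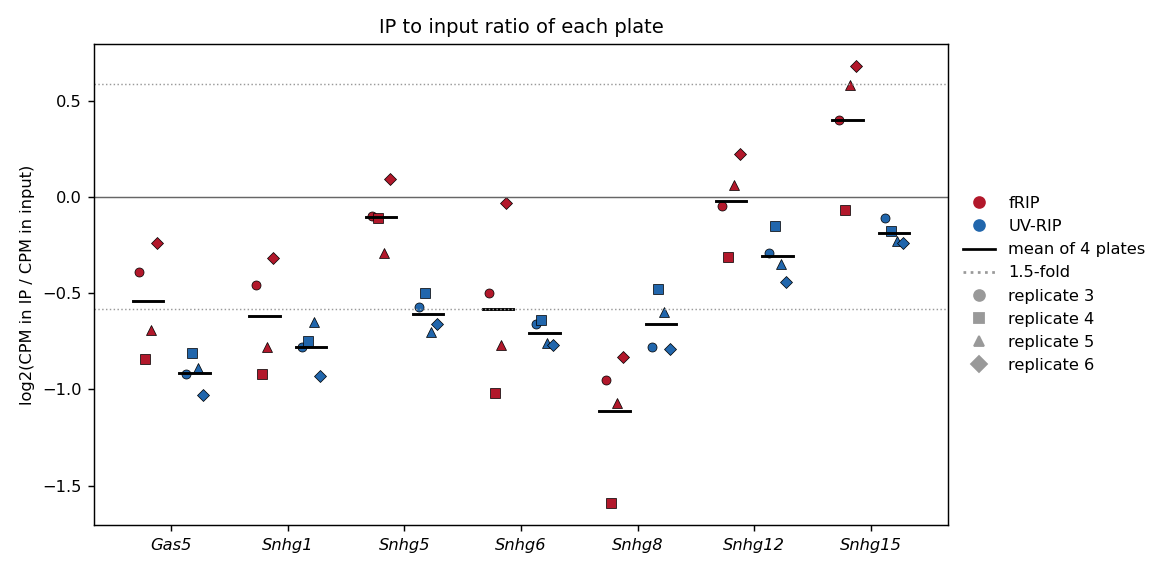
Ratio of IP to input in each plate for the 7 measured hosts. The vertical axis is log2 of CPM in the IP over CPM in the input of the same lysate, red symbols are fRIP, blue symbols are UV-RIP, the shape gives the replicate number, black bars are means of 4 plates and dotted lines mark 1.5-fold. The UV-RIP ratios are below 0 in every plate for every host on this CPM scale (the fitted value of Snhg15 is 0.08 with the length trend removed), and those of fRIP spread more widely, with replicate 4 at -1.59 for Snhg8 and -0.07 for Snhg15.

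In UV-RIP no member was enriched and 5 of the 7 were depleted, Gas5, Snhg1, Snhg6, Snhg8 and Snhg5. All 7 were lower in the IP in each of the 4 plates in CPM, although for Snhg15 this was not so under every scaling. Among all genes tested 0.680% were enriched and 5.53% depleted, and among the 948 short genes 0.316% were enriched and 18.2% depleted. The median log2 fold change of the 7 hosts was -0.66, against -0.17 over all genes and -0.27 over the short ones.

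Gas5 had 186, 182, 192 and 205 CPM in the UV-RIP inputs of replicates 3 to 6 and 98.4, 104, 104 and 100 CPM in the IPs. Neither group spread far and the gap between them was wide, with a log2 fold change of -0.91 (SE 0.04, adjusted p = 2.59e-102). Snhg1 had 93.6, 94.6, 108 and 109 CPM in the inputs and 54.6, 56.2, 68.8 and 57.3 CPM in the IPs, a log2 fold change of -0.78 (SE 0.05, adjusted p = 1.98e-62). How small the adjusted p was depended on the fit more than the fold did. In the fit over all 16 libraries it was 8.85e-10 for Gas5 and 2.40e-08 for Snhg1, at the same fold changes.

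Snhg6 had 35.2, 33.9, 37.2 and 35.6 CPM in the UV-RIP inputs and 22.2, 21.8, 22.0 and 20.9 CPM in the IPs, with a log2 fold change of -0.71 (SE 0.06, adjusted p = 7.60e-30). Snhg8 had 14.2, 13.3, 13.2 and 15.2 CPM in the inputs and 8.30, 9.56, 8.76 and 8.80 CPM in the IPs, with a log2 fold change of -0.66 (SE 0.09, adjusted p = 2.33e-13). Snhg5 had 50.9, 44.8, 52.9 and 49.1 CPM in the inputs and 34.4, 31.7, 32.6 and 31.1 CPM in the IPs, with a log2 fold change of -0.61 (SE 0.05, adjusted p = 4.65e-28). In none of these did the groups overlap. Without replicate 5 Snhg5 stood at -0.58 and its call was lost.

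Snhg12 and Snhg15 were closest to their inputs. Snhg12 had 34.1, 34.6, 38.8 and 39.9 CPM in the UV-RIP inputs and 27.9, 31.2, 30.3 and 29.4 CPM in the IPs, without overlap, and its log2 fold change of -0.31 (SE 0.06, adjusted p = 2.72e-07) did not reach 1.5-fold. Snhg15 had 50.4, 44.8, 54.5 and 49.4 CPM in the inputs and 46.6, 39.5, 46.3 and 41.8 CPM in the IPs, with overlap and a log2 fold change of -0.20 (SE 0.05, adjusted p = 6.20e-04). For Snhg15 the value was -0.01 with TMM scaling, -0.02 with DESeq2 median-of-ratios size factors and 0.08 with the length trend removed.

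The size of the UV-RIP values depended on the processing. Removal of the trend on gene length brought the median of the hosts to -0.31, and only Gas5 was depleted, 1 of 7, with Snhg1 at -0.50. Over all genes 1.62% were depleted in that fit. When the library size excluded Gm26917 and Gm42418, the median of the hosts was -0.51 and Gas5 and Snhg1 were depleted, 2 of 7, against 2.2% of all genes. TMM scaling moved the median of all genes from -0.17 to 0.01 and the calls over all genes from 156 enriched and 1268 depleted to 505 and 425. With it the count was also 2, against 1.85% of all genes depleted. Relative to the median of all genes in the reported fit, Gas5 stood at -0.74, Snhg1 at -0.61, Snhg6 at -0.54, Snhg8 at -0.49, Snhg5 at -0.44, Snhg12 at -0.14 and Snhg15 at -0.03.

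**Figure D4:**
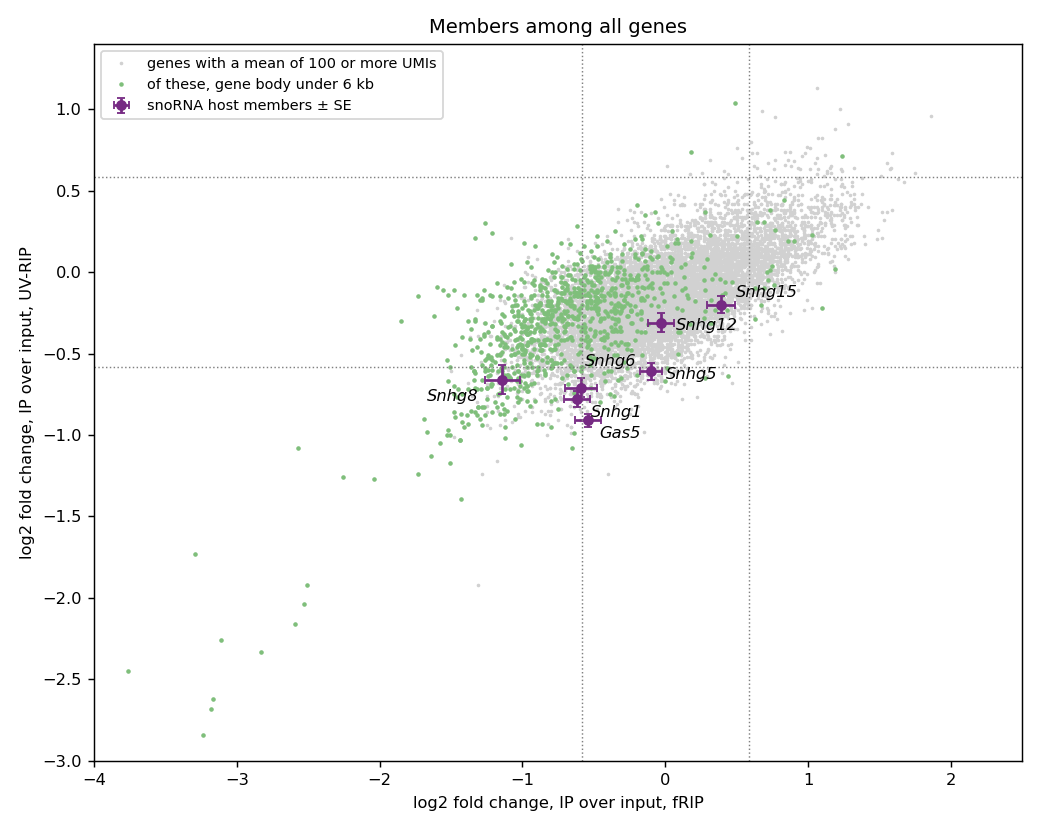
The 7 measured hosts among genes with at least 100 UMIs on average. Axes are the log2 fold change of IP over input in fRIP (horizontal) and UV-RIP (vertical), grey points are genes, green points are those with a body under 6 kb, purple points are the hosts with bars of 1 SE and dotted lines mark 1.5-fold. The hosts range from -1.14 to 0.39 in fRIP and from -0.91 to -0.20 in UV-RIP, and none is in the enriched region of either.

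The log2 fold change differed between the crosslinkers for 4 of the 7 hosts in the interaction test. It was higher in fRIP than in UV-RIP for Snhg15 by 0.59 (SE 0.12, adjusted p = 4.47e-04), for Snhg5 by 0.50 (SE 0.10, adjusted p = 2.59e-04) and for Gas5 by 0.37 (SE 0.10, adjusted p = 0.00743). It was lower in fRIP for Snhg8, by -0.49 (SE 0.15, adjusted p = 0.0186). The differences of Snhg12 (0.28, 95% interval 0.06 to 0.50, adjusted p = 0.064), Snhg1 (0.16, 95% interval -0.05 to 0.37, adjusted p = 0.331) and Snhg6 (0.12, 95% interval -0.16 to 0.40, adjusted p = 0.629) did not pass. Over all genes 18.6% were higher and 8.07% lower in fRIP in this test. The median of all genes was itself higher in fRIP, by 0.15, whereas that of the short genes was -0.41 and that of the hosts 0.28.
The ratios of single plates did not overlap between the crosslinkers for Snhg5, Snhg8 and Snhg15. The share of all genes whose ratios, or whose IP and input groups, do not overlap was not computed. For Gas5 the ranges met, with -0.84 to -0.24 in fRIP against -1.03 to -0.81 in UV-RIP. Without the plate as a block the test kept Snhg5 and Snhg15 and lost Gas5 (0.36, adjusted p = 0.0911) and Snhg8 (-0.52, adjusted p = 0.17). Without replicate 4 the difference of Snhg8 was -0.24 (adjusted p = 0.267), while those of Snhg1 (0.27), Snhg6 (0.29) and Snhg12 (0.44) passed.

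**Figure D5:**
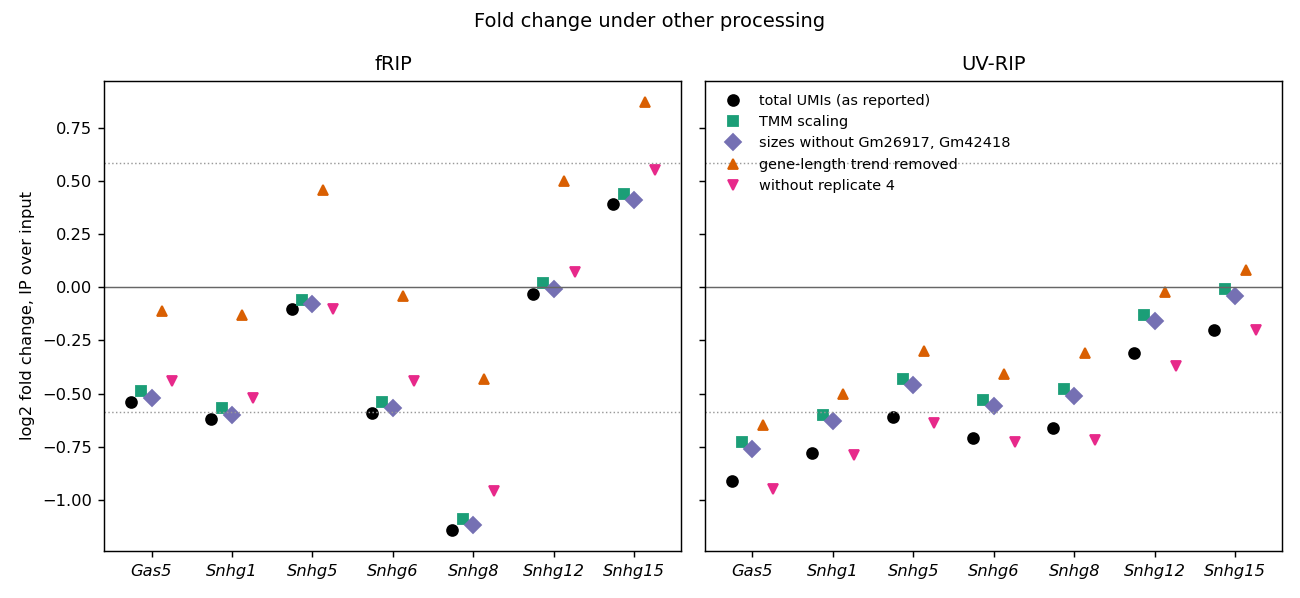
Log2 fold change of IP over input of the 7 hosts under 5 ways of processing the counts, in fRIP on the left and UV-RIP on the right. Black circles are the reported values, and the other symbols are TMM scaling, library sizes without Gm26917 and Gm42418, a gene-length trend removed, and replicate 4 left out; dotted lines mark 1.5-fold. Removing the length trend moves every fRIP value upward, from -1.14 to -0.43 for Snhg8 and from 0.39 to 0.87 for Snhg15, and the other scalings move the UV-RIP values upward more than those of fRIP.

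The inputs compare the hosts in the 2 kinds of lysate. None of the 7 differed between the fRIP and UV-RIP inputs, at the same fold and adjusted p, while over all genes 10.6% were higher and 9.44% lower in the fRIP inputs. The log2 difference lay between -0.17 for Snhg12 (95% interval -0.42 to 0.09, adjusted p = 0.342) and 0.28 for Snhg8 (95% interval -0.12 to 0.68, adjusted p = 0.313), with Gas5 at -0.03 (95% interval -0.25 to 0.19, adjusted p = 0.867). For Snhg8 the interval reaches past 1.5-fold. Without replicate 4 Snhg12 stood at -0.37 (adjusted p = 5.45e-04), Gas5 at -0.21 (adjusted p = 0.00919), Snhg6 at -0.25 (adjusted p = 0.018) and Snhg15 at -0.21 (adjusted p = 0.0323). Snhg8 was then at -0.10, Snhg1 at 0.09 and Snhg5 at 0.10, with adjusted p of 0.536, 0.378 and 0.336. None reached 1.5-fold. Without replicate 6 Snhg12 stood at -0.04. With all replicates the median of the hosts was -0.01, whereas that of the 948 short genes was 0.59. No test of this difference was made. In bulk lysates fewer cells with a transcript and less transcript per cell cannot be told apart, and the crosslinker cannot be told apart from the set of plates.

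Other genes overlap or neighbour the hosts. The gene of the zinc finger protein Zbtb37 runs from the Gas5 start on the opposite strand and overlaps it by 428 bases. It had 60.5 ± 3.83 CPM in the fRIP inputs and 58.1 ± 4.14 in the IPs (SD, n = 4 each), a log2 fold change of -0.06 (adjusted p = 0.629), and in UV-RIP one of -0.37 (adjusted p = 6.12e-14). Slc3a2, an amino acid transporter subunit, starts 106 bases from the start of Snhg1 on the opposite strand without overlap, and had log2 fold changes of -0.52 (adjusted p = 4.55e-06) in fRIP and -0.23 (adjusted p = 1.18e-07) in UV-RIP. Neither neighbour passed 1.5-fold in a comparison in which its host did.
Rcc1, which covers Snhg3, had a log2 fold change of -0.13 (adjusted p = 0.211) in fRIP and -0.14 (adjusted p = 0.013) in UV-RIP, and was higher in the fRIP inputs than in the UV-RIP inputs by 0.68 (adjusted p = 3.42e-05). Whether its counts hold UMIs from the stretch shared with Snhg3 was not tested. Gm17300, antisense within Snhg3, had between 3 and 97 UMIs and no call in any comparison. Mcmdc2, which overlaps the end of Snhg6 by 127 bases on the opposite strand, had no call between IP and input. Its log2 fold change was -0.25 (adjusted p = 0.128) in fRIP and -0.57 (adjusted p = 1.45e-08) in UV-RIP, just short of the fold threshold.

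Other noncoding snoRNA hosts were examined as a list of 11, of which 9 were in the table by symbol and tested. None was enriched. In fRIP 3 were depleted (median log2 fold change -0.34), against 10.7% of all genes, and in UV-RIP 2 were (median -0.28), against 5.53%. Snhg17 was at 0.34 (adjusted p = 0.00118) in fRIP and -0.04 (adjusted p = 0.539) in UV-RIP, which differed between the crosslinkers by 0.38 (adjusted p = 0.00169). Zfas1, host of Snord12, was at -0.34 (adjusted p = 0.00322) in fRIP and -0.36 (adjusted p = 3.92e-13) in UV-RIP, short of the fold. Snhg11 was depleted in both, at -0.87 (adjusted p = 2.50e-08) and -0.85 (adjusted p = 9.92e-58). Between the inputs 0 of the 9 were higher and 4 were lower in fRIP, against 9.44% of all genes lower, with a median of -0.44.

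Protein-coding genes that carry snoRNAs in their introns, most of them for ribosomal proteins and translation factors, were examined as a list of 35, of which 34 were tested. Rpl13 lies within Gm20388 on the same strand and was not. In fRIP 0 were enriched and 25 depleted, with a median of -0.82, against 10.7% of all genes and 59.1% of the short ones depleted. In UV-RIP 0 were enriched and 10 depleted, with a median of -0.44, against 5.53% and 18.2%. The list was not limited by length and holds longer genes such as Rcc1, so the short genes are not a matched reference for it. In the interaction test 2 were higher and 20 lower in fRIP, against 18.6% and 8.07% of all genes, and in the inputs 26 were higher and 0 lower in fRIP, against 10.6% and 9.44%, with a median of 0.76. The elongation factor Eef2 was at -0.48 (adjusted p = 5.58e-06) in fRIP and -0.00 (adjusted p = 0.954) in UV-RIP. Nucleolin (Ncl) was depleted in both, at -0.93 (adjusted p = 4.29e-10) and -0.59 (adjusted p = 4.47e-54). Eif4g2 was depleted in fRIP at -0.61 (adjusted p = 1.93e-07) and stood at -0.09 (adjusted p = 0.0341) in UV-RIP. Side by side with the noncoding members, the median of this list was lower in fRIP (-0.82 and -0.54) and higher in UV-RIP (-0.44 and -0.66), and its inputs were higher in fRIP (0.76 and -0.01). These 2 lists were not tested against each other, and the fRIP inputs enter both the fRIP and the input values.

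The proteins that bind snoRNAs and those that assemble the particle were measured through their mRNAs. Of 16 tested, 0 were enriched and 4 depleted in fRIP (median -0.34), and 0 and 2 in UV-RIP (median -0.31), where over all genes 8.80% and 10.7% were enriched and depleted in fRIP and 0.680% and 5.53% in UV-RIP. Nop58, a core protein of box C/D particles, was at -0.50 (adjusted p = 5.91e-06) in fRIP and -0.56 (adjusted p = 3.26e-45) in UV-RIP. Nop56, its partner, was at 0.15 (adjusted p = 0.154) and -0.14 (adjusted p = 0.00233). Dkc1, the pseudouridine synthase of box H/ACA particles, was depleted in fRIP at -0.82 (adjusted p = 1.80e-08) and stood at -0.33 (adjusted p = 1.88e-13) in UV-RIP. Of 14 factors of nonsense-mediated decay, 1 was enriched and 3 depleted in fRIP (median -0.19), and 0 and 2 in UV-RIP (median -0.27), beside the same shares over all genes. The enriched one was Smg9 at 0.66 (adjusted p = 1.45e-06), which falls outside the naming rule and was named after its value was seen. The kinase Smg1 was at 0.15 (adjusted p = 0.124) in fRIP and 0.31 (adjusted p = 7.07e-15) in UV-RIP, and the endonuclease Smg6 at 0.30 (adjusted p = 0.00204) and -0.33 (adjusted p = 2.97e-17).

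The members did not share 1 profile over the 16 libraries. Pearson's r between their log2(CPM + 1) values was 0.95 for Gas5 with Snhg1 and for Gas5 with Snhg6, 0.90 for Snhg6 with Snhg8 and 0.83 for Snhg1 with Snhg5. For Snhg15 it was 0.20 with Gas5, 0.10 with Snhg6 and -0.11 with Snhg8, and at most 0.61 with any member (Snhg5). Among 10201 genes of at least 100 UMIs on average, those most like the mean standardised profile of the members were Zfas1 (r = 0.945), Cdk5rap1 (0.940), 1110038B12Rik (0.938), Tomm20 (0.927) and Trmo (0.926). The annotation places 3 snoRNA entries within Zfas1 on the same strand, 2 within 1110038B12Rik, 1 within Tomm20 and 0 within the other two. These correlations over 16 libraries describe the libraries, which share crosslinker, pulldown, depth and lysate.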

How the data were processed

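The 16 libraries hold RNA of Sox2 IPs and inputs of mESC. The authors mapped reads with STAR to mm10 and discarded those not uniquely mapped. The deposited values are raw counts of UMIs per gene body of GENCODE vM16, introns included, made by the authors with featureCounts; tool versions and strand setting are not given in the sources used here. All columns were matched to a library by its label.

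Tests used edgeR 4.0.16 in R 4.3.3 (quasi-likelihood test, replicate number as block, total UMIs as library size) over the 22936 genes that reached 3 UMIs in any library, with Benjamini-Hochberg adjustment over all genes. The interaction was fitted over 16 libraries with the plate as block, and the inputs without a block. The SE is the log2 fold change divided by the square root of its F statistic, and intervals are 1.96 SE. CPM is relative to the library's UMIs on genes. DESeq2 1.42.0 was an alternative. Simulated fRIP, UV-RIP, interaction and input data with 200 changed genes gave recoveries of 97%, 96%, 91% and 98% over 22034, 21023, 22582 and 21378 genes. Whether folds near 1.5, as in several hosts, are recovered at these rates was not tested.

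IP and input of a number share a lysate by the study's methods. After subtraction of the group means, libraries of a number correlated at 0.11 to 0.60 in fRIP and 0.03 to 0.44 in UV-RIP. Replicates differed by more than sampling noise (lowest chi-square per degree of freedom 1.72), so none was a copy. p-values rest on the spread between these plates and on a variance pooled over genes, and their size depends on the fit.

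Members and lists were chosen with earlier results of these data known. Named genes are all members, genes overlapping a member or starting within 1 kb of its start, the 3 most abundant of each list and the 5 with the most similar profile. A gene that this rule names is not reported here. Positions and sequences are from GENCODE vM21 on GRCm38; 50604 of 53379 genes matched by identifier and version and 2670 by identifier only.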

Additional observations from a re-analysis of the deposited data

Results flagged for a closer look

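In 4 hosts the log2 fold change of IP over input differed between fRIP and UV-RIP by the interaction test over 16 libraries. Snhg15 differed by 0.59 and Snhg5 by 0.50, and these passed under every alternative run, with differences from 0.44 to 0.79 and from 0.36 to 0.77. Snhg15 was at 0.39 in fRIP and -0.20 in UV-RIP, and neither passed the fold threshold. With TMM scaling the UV-RIP value was -0.01. Gas5 differed by 0.37, with all 4 plates of both crosslinkers lower in the IP, and did not pass with TMM scaling (0.25, adjusted p = 0.0777), with DESeq2 median-of-ratios size factors (0.22, adjusted p = 0.163), without Gm26917 and Gm42418 in the library size (0.24, adjusted p = 0.0965), without replicate 3 (0.32, adjusted p = 0.0858) or replicate 6 (0.23, adjusted p = 0.171), or without the block (0.36, adjusted p = 0.0911). Snhg8 differed by -0.49, the only one lower in fRIP, and did not pass without replicate 4 (-0.24, adjusted p = 0.267), whose fRIP input held 28.2 CPM against 11.6 to 14.8 in the other three, nor without replicate 5 (-0.49, adjusted p = 0.0663), without the block (-0.52, adjusted p = 0.17), with DESeq2 on total UMIs (-0.47, adjusted p = 0.0746) or with the length trend removed (-0.13, adjusted p = 0.578). Dixon's test at 4 values passed its critical value in 0 of 42 groups, and also not for this fRIP input of replicate 4, so it says little at this size.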

How the results depend on the processing

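Of 107 alternative values of the counts and medians 90 stayed within the limits set (counts within 1.5 times the reported count, medians within 1 SD between replicates) and 17 moved. Of 350 alternative values of single hosts 282 kept sign and call, 37 lost a call, 10 gained one and 21 changed sign. No alternative gave an enriched host in UV-RIP. Enriched hosts in fRIP went from 0 to 1, Snhg15, with the gene-length trend removed and with no fold threshold. Depleted hosts in fRIP went from 3 to 1 with TMM scaling and to 0 with the length trend removed, and ranged from 1 to 4 with 1 replicate left out. The share of all genes depleted in fRIP was 9.37%, 5.41% and 9.41% to 11.3% in these fits. The enriched share was 8.99% with the length trend removed. The fRIP median went from -0.54 to -0.04 with the length trend removed. Depleted hosts in UV-RIP went from 5 to 2 with TMM scaling, with DESeq2 median-of-ratios size factors and without Gm26917 and Gm42418, and to 1 with the length trend removed. The median went from -0.66 to -0.48, -0.49, -0.51 and -0.31 under these, and the depleted share of all genes from 5.53% to 1.85%, 1.02%, 2.2% and 1.62%. Without replicate 5 the depleted hosts in UV-RIP were 4, against 5.78% of all genes. Depleted hosts in UV-RIP were 7 with no fold threshold. Hosts that differed between crosslinkers went from 4 to 6 with the length trend removed and ranged from 3 to 6 with 1 replicate left out. Over all genes 8.96% were higher and 10.6% lower in fRIP with the length trend removed. Hosts that differed between the inputs went from 0 to 1 (Snhg12, -0.64) with the length trend removed, against 10.6% of all genes lower in the fRIP inputs.

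With the length trend removed Snhg5 changed sign in fRIP (0.46), Snhg12 in fRIP (0.50), Snhg15 in UV-RIP (0.08), and Snhg1 (-0.16), Snhg5 (-0.30) and Snhg8 (-0.41) between the inputs. Snhg12 in fRIP was 0.02 with TMM scaling, 0.004 with DESeq2 median-of-ratios size factors and 0.07 without replicate 4. The difference of Snhg6 between crosslinkers was -0.001 with TMM scaling, -0.03 with DESeq2 median-of-ratios size factors, -0.02 without Gm26917 and Gm42418 and -0.08 without replicate 6 (-0.08 to 0.29 with 1 replicate left out). Between the inputs, with 1 replicate left out, Gas5 ranged from -0.21 to 0.09 (0.02 without replicate 5), Snhg6 from -0.25 to 0.08 (0.02 without replicate 5), Snhg8 from -0.10 to 0.47 and Snhg15 from -0.21 to 0.12 (0.01 and 0.05 without replicates 3 and 6). The cause of these changes was not tested.

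Without the replicate block 2 of the 4 differences between crosslinkers passed, and the counts of depleted hosts were unchanged at 3 in fRIP and 5 in UV-RIP. Between the inputs the replicate numbers do not pair samples (correlations of -0.27 to -0.07), and the replicate block left the count at 0. Over all genes the calls higher and lower in fRIP by interaction went from 4264 and 1852 to 3062 and 2810 with TMM scaling, enriched and depleted genes in fRIP from 2018 and 2448 to 2062 and 1240 with the length trend removed, and those between the inputs from 2427 and 2165 to 1835 and 2780 without Gm26917 and Gm42418. Snhg3 had 81 bases free of other genes on its strand, and a low level and this short stretch cannot be told apart.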
